A study of Macaca mulatta with 16 samples.

Results

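The sites described here are the highly methylated CCCGGG sites of the rhesus monkey genome that lie in clusters, meaning that at least 1 other listed SmaI site falls within 500 bp on the same chromosome. They were chosen from the values of the youngest animals: an autosomal site needed 100 reads or more in 10 or more of the 13 libraries of monkeys fed ad libitum (AL), and its corrected methylation had to average over 90% in the infants. This gave 5633 of the 24288 autosomal sites with that depth, or 23.2%. For 5398 of them all 4 infant libraries had 100 reads. The infant mean therefore selected the sites, so infant levels and every change measured from them are given as a description without a test. The study asked how methylation drifts with age in blood and whether caloric restriction (CR) alters it.

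Whole blood DNA of 16 rhesus monkeys (Macaca mulatta) gave 1 library each. AL-infant were 2 females and 2 males of 0.8–0.9 years, which the labels call young. AL-middle were 1 female and 4 males of 10.4–12.1 years. AL-old were 1 female and 3 males of 21.9–29.8 years. CR-old were 3 females of 23.7–25.1 years on a calorie-restricted diet that, by the study's account, began in adulthood. Diet and sex are thus only partly separated in the old animals, whose sole AL female was AL-old 2. Whole blood is a mixture of leukocyte types, and a change within a cell type and a change in the mixture cannot be told apart.

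In mammalian blood most CpG sites outside CpG islands are methylated in nearly every cell, while clusters of unmethylated CpGs mark many promoters. DNA methyltransferases copy methylation to the new strand at each cell division, and highly methylated sites are known to lose some of it as animals age. DREAM, the assay used, cuts unmethylated CCCGGG with SmaI and then methylated CCCGGG with XmaI, and reads which enzyme made each fragment end. A fragment is sequenced when both of its ends are such cuts at a distance that survives size selection, so 2 neighbouring sites can be the ends of the same fragment and are not independent measurements. Each file gives a methylated and an unmethylated read count per site, and a percentage corrected with standards of known methylation that were spiked into the sample. The correction multiplies the odds of methylation by 1 constant per library.

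Reads at all listed SmaI sites ranged from 8067560 to 126804562 per library, and the median depth of the chosen sites from 252 to 4079 reads. With 95 of 100 reads methylated, the Wilson 95% interval of the share is 88.8–97.8%, and with 480 of 505 it is 92.8–96.6%, for counting error only. The constants were 0.398–0.460 in AL-infant, 0.469–0.728 in AL-middle, 0.250–0.424 in AL-old and 0.494–0.772 in CR-old, so the correction lowered AL-old most. One partly methylated standard, named Luc306, read 27.3–32.0% before correction in 7 libraries and 41.4–68.2% in the other 9. The 7 were all AL-middle libraries with CR-old 1 and CR-old 28. Age class and the reading of the standard cannot be told apart for AL-middle, and CR-old 4 was the only CR library among the 9. Its reading of 42.6% lay in the range of AL-infant (41.4–56.0%) and below that of AL-old (50.1–68.2%), and its constant of 0.494 was above those of AL-old.

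Highly methylated sites were clustered about as often as other covered sites. Of 5785 sites over 90% in the infants, 97.4% had a neighbour within 500 bp and 152 stood alone. Of all 24288 covered sites, 1.91% had no neighbour at that distance, whereas 72.9% of the 362007 listed autosomal sites had none, so clustering was common to what the assay covered. The clusters were mostly pairs: 3654 sites (64.9%) had 1 neighbour, 1430 had 2, 354 had 3 and 195 had 4 or more. The nearest listed site lay at a median of 158 bp (range 6–471 bp). Up to 5 neighbours, high methylation was less frequent where sites were denser. The chosen sites made up 32.0% of the covered sites with 1 neighbour, 21.5% with 2, 11.3% with 3, 6.24% with 4 and 5.32% with 5. From 6 neighbours (8.58%) the order turned, to 12.7% with 7 and 37.5% of 16 covered sites with 9. Linked at gaps of at most 500 bp, the sites fell into 3842 runs, of which 947 (24.6%) held no listed site outside the selection. In the 2477 runs of just 2 listed sites, both were highly methylated in 857 (34.6%).

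The mean corrected level of the 5633 sites was lowest in the AL-old monkeys. It was 95.1, 95.9, 95.1 and 95.4% in AL-infant 49, 52, 54 and 57. It was 93.3, 90.5, 93.5, 91.7 and 91.4% in AL-middle 17, 40, 42, 43 and 46. AL-old 2, 7, 24 and 33 had 84.6, 89.0, 85.2 and 81.1%, and CR-old 1, 4 and 28 had 93.2, 91.5 and 92.7%. Every AL-old monkey lay below every other monkey, AL-old 7 being nearest to them. In AL-infant the mean ± SD over the 4 monkeys was 95.4 ± 0.364%. For the 5 AL-middle monkeys it was 92.1 ± 1.27%, for the 4 AL-old monkeys 85.0 ± 3.25% and for the 3 CR-old monkeys 92.5 ± 0.891%. AL-old was 10.4 points below AL-infant and 7.15 points below AL-middle, and CR-old was 7.54 points above AL-old. CR-old 4 was 6.55 points above the AL-old mean.

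Before correction the order of the groups rested on fewer animals. The mean share of methylated reads was 98.0, 98.1, 97.8 and 98.2% in AL-infant 49, 52, 54 and 57, above all other monkeys. AL-middle 17, 40, 42, 43 and 46 had 95.1, 94.97, 95.4, 95.1 and 95.8%. AL-old 2, 7, 24 and 33 had 92.4, 96.0, 95.7 and 91.3%, and CR-old 1, 4 and 28 had 94.7, 95.6 and 95.3%. AL-old 2 and 33 were low on this scale too, while AL-old 7 lay above all AL-middle and CR-old monkeys and AL-old 24 above all of them but AL-middle 46. AL-old was 4.18 points below AL-infant without overlap. AL-old was 1.44 points below AL-middle and 1.33 points below CR-old, and in both cases the monkeys overlapped.

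**Figure D1:**
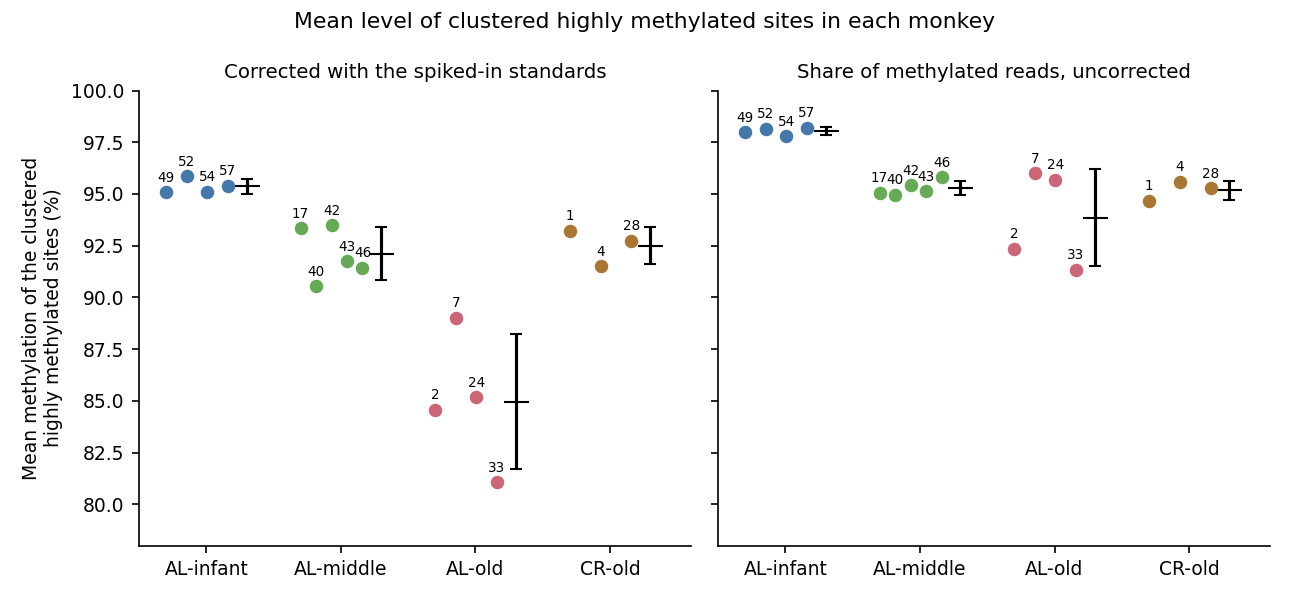
Mean methylation (%) of the 5633 clustered highly methylated sites in each monkey (numbered points) by group, corrected with the standards at left and as the uncorrected share of methylated reads at right; the axis starts at 78%, and bars give the mean ± SD over the monkeys of a group. After correction the 4 AL-old monkeys (81.1–89.0%) lie below all others, and before correction AL-old 7 and 24 lie at 96.0 and 95.7%, beside or above the AL-middle and CR-old monkeys.

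Behind these means, many sites kept a high level and a minority fell far. Between AL-infant and AL-old the median site fell by 8.05 points, against a median change of -0.065 points over all 24288 covered sites. The mean fell at 5448 sites and was higher at 185. It was lower by over 10 points at 2394 sites (42.5%) and by over 20 points at 914 (16.2%), and 1055 sites (18.7%) moved by at most 2 points. No site was more than 5.36 points higher in AL-old. In AL-middle and CR-old the distribution was narrower, with 30 and 18 sites over 20 points below AL-infant. An average of 93.9% of the sites were over 90% methylated in an AL-infant monkey, 71.3% in AL-middle, 45.0% in AL-old and 73.6% in CR-old.

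The AL-old monkeys often lay on different sides of 90% at the same site. Of 5109 sites with 100 reads in all 4, 1727 (33.8%) were at or under 90% in each of them, 1259 (24.6%) were over 90% in each, and the rest were mixed. Because the mean levels of these monkeys differed, mixed sites also arise where a site fell in all of them by different amounts, and whether the affected sites differed between monkeys was not tested. The median SD between monkeys at a site was 1.33 points in AL-infant, 1.87 in AL-middle, 5.23 in AL-old and 1.46 in CR-old. An SD over 10 points occurred at 1056 sites in AL-old, at 72 in CR-old, at 26 in AL-middle and at 0 in AL-infant, where the selection over 90% limits the spread. AL-old 33 had the lowest value of the 4 at 44.6% of the sites and AL-old 7 the highest at 51.3%. In CR-old, 3199 of 5383 sites with 100 reads in all 3 monkeys (59.4%) were over 90% in each. Of 3962 sites with 100 reads in all 16 monkeys, 916 (23.1%) were over 90% in every one.

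The starting level within the selected range went with the size of the later difference in percentage points. Sites at 90–92% in AL-infant had a median change of -16.0 points in AL-old, those at 94–96% of -10.2 points and those at 98–100% of -2.17 points. The sites of the lowest band stood at a median of 74.9% in AL-old and 87.3% in CR-old, and those of the highest band at 96.6 and 98.0%. Since the infant level enters both the selection and the change, these bands are a description. Equal shifts in odds give smaller changes in points nearer 100%, and whether the shift in odds differed between the bands was not tested. The 2 sites just inside the limit of 90% were SmaI_rheMac2_152406 (chr7:162989889) and SmaI_rheMac2_205678 (chr10:86575876), with a change of -27.1 and -4.33 points. The 2 clustered sites just outside it, SmaI_rheMac2_129714 (chr6:173893623) and SmaI_rheMac2_253645 (chr13:125378207), had changes of 1.09 and -20.7 points.

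The number of neighbours made a small difference to the level. Values are given as the mean ± SD over monkeys (4, 5, 4 and 3 in the order of the groups). With 1 neighbour the mean level was 95.4 ± 0.366% in AL-infant, 92.0 ± 1.28% in AL-middle, 84.6 ± 3.48% in AL-old and 92.4 ± 0.982% in CR-old. With 4 or more neighbours it was, in that order, 95.7 ± 0.315%, 92.6 ± 1.37%, 86.3 ± 3.11% and 93.3 ± 0.649%. The AL-old minus AL-infant difference was -10.8 points with 1 neighbour and -9.35 points with 4 or more, a gap smaller than the spread between AL-old monkeys. Sites with 2 and with 3 neighbours lay between, at 85.7 and 85.3% in AL-old.

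A comparison within each library removes the constant of the correction, which cancels in a difference of log odds. Differences between monkeys remain, and the 0.5 reads added to each count leave some dependence on depth. The log2 odds of methylation at sites with 4 or more neighbours exceeded those at sites with 1 neighbour in each of the 16 libraries. This difference in log2 odds was 0.18 ± 0.063 in AL-infant, 0.25 ± 0.042 in AL-middle, 0.35 ± 0.060 in AL-old and 0.32 ± 0.085 in CR-old. The AL-old range (0.27–0.41) and the AL-infant range (0.12–0.27) nearly met. Split further, the difference with 4 or 5 neighbours was 0.094 in AL-infant (0.046–0.15) and 0.32 in AL-old (0.24–0.41), without overlap. With 6 or more neighbours (66 sites) it was 0.35 in AL-infant (0.25–0.51) and 0.44 in AL-old (0.28–0.83), and the monkeys overlapped. Sites with 2 neighbours were below those with 1 in all 4 AL-infant libraries, by 0.028 on average, and above them in the other 12. With 3 neighbours the difference was -0.10 in AL-infant and 0.0037 in AL-old, so the level did not rise step by step with the number of neighbours.

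**Figure D2:**
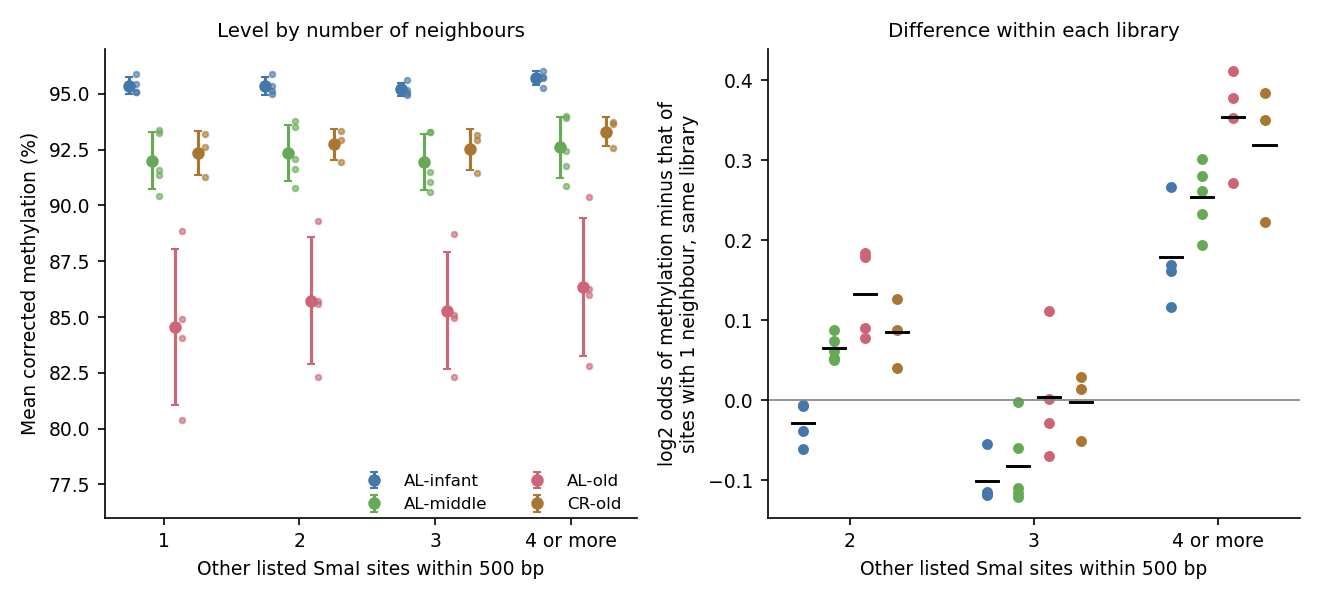
Left, mean corrected methylation (%) of the sites by the number of other listed SmaI sites within 500 bp, with large points and bars for the mean ± SD of each group and small points for monkeys (axis from 76%). Right, the log2 odds of methylation minus those of sites with 1 neighbour in the same library, a point per monkey and a line at the group mean; with 4 or more neighbours all 16 monkeys are above 0.

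The log2 odds of clustered and isolated highly methylated sites differed little within a library at a minimum of 100 reads, and by more at 200 reads in the old groups. The log2 odds of the clustered sites minus those of the 152 isolated ones averaged 0.036 ± 0.062 in AL-infant, -0.038 ± 0.10 in AL-middle, -0.038 ± 0.066 in AL-old and -0.073 ± 0.035 in CR-old. The sign differed between monkeys of the same group in each AL group. With 200 reads, which left 90 isolated sites, the mean was -0.18 in AL-old and -0.15 in CR-old. Isolated sites averaged 95.2 ± 0.314% in the AL-infant monkeys and 85.3 ± 2.71% in the AL-old monkeys, so they too were lower in AL-old. How a site with no listed neighbour came to be sequenced was not examined here.

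Sites beside a highly methylated neighbour had higher levels than those beside a neighbour at 5–90%. The neighbour was itself over 90% in AL-infant for 2957 sites, at 65–90% for 1306, at 35–65% for 182, at 5–35% for 52 and at 5% or less for 8, and it had too few reads for 1128. Sites beside a neighbour over 90% had a median of 96.1% in AL-infant, 93.7% in AL-middle, 88.5% in AL-old and 94.0% in CR-old. Beside a neighbour at 65–90% the medians were 94.7, 92.1, 83.9 and 92.1%. They were 94.2% in AL-infant and 84.3% in AL-old beside a neighbour at 35–65%, and 93.8 and 82.8% beside one at 5–35%. The 8 sites beside a neighbour at 5% or less did not continue this order, with 95.97% in AL-infant and 93.97% in AL-old. Within a library the log2 odds of the second class were below those of the first by 0.50 ± 0.018 in AL-infant, 0.43 ± 0.036 in AL-middle, 0.64 ± 0.100 in AL-old and 0.51 ± 0.043 in CR-old. The AL-old monkeys (0.52–0.73) barely cleared the AL-infant monkeys (0.47–0.52). Beside a neighbour at 35–65% the log2 odds relative to the first class were -0.59 ± 0.049 in AL-infant and -0.57 ± 0.098 in AL-old, and the monkeys overlapped.

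Neighbouring sites changed together. Over 1715 pairs of adjacent chosen sites no more than 500 bp apart, the Spearman rho of the AL-old minus AL-infant change was 0.56, and it was 0.61 for the 815 pairs over 100 and up to 200 bp apart. Over 3325 pairs of successive sites more than 10 kb apart on a chromosome it was 0.11. The rho of the level at adjacent sites was 0.25 in AL-infant, 0.35 in AL-middle, 0.51 in AL-old and 0.39 in CR-old. The pairs share libraries, and adjacent sites also share fragments and reads, so the correlations are a description over sites. The median gap between the changes of 2 adjacent sites was 4.12 points, against 7.60 points for sites over 10 kb apart. The distance to the nearest listed site itself hardly went with the level: the median in AL-old was 86.7–88.1% in all 8 distance classes. The median depth varied from 267 to 749 reads over the same classes and was highest at 100–150 bp.

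The test of single sites compared CR-old with AL-old and AL-old with AL-middle, neither of which was used to choose the sites. A quasi-binomial logistic model was fitted to the reads of each autosomal site, limma moderated its dispersion over the sites, and p was adjusted by Benjamini-Hochberg over all sites tested. On simulated reads this model made more false calls than its adjusted p allows, and limma on log2 odds did not. The results of limma are therefore given beside the counts of the logistic model, on the reads as counted only. Counts on other scales have no limma result beside them. On the reads as counted, 22 of 5354 clustered highly methylated sites were higher and 21 lower in CR-old than in AL-old. Over all 33134 sites tested the shares called were 0.145% higher and 1.89% lower. With the authors' constants as an offset, 1102 of the 5354 sites were higher and 2 lower, while 13% and 0.492% of all sites tested were called. All 22 sites called higher without the constants were also called with them, but only 1 of the 21 called lower was. With limma on log2 odds of the reads as counted, 0 of the sites were called in either direction. Of all sites, limma called 0% higher and 0.00604% lower. The calls also depended on single monkeys. Without AL-old 7, 260 sites were higher and 4 lower on the reads as counted, against 3% and 2.47% of all sites tested then. AL-old 7 had the highest mean of the AL-old monkeys and also their deepest library. Its median depth at the chosen sites was 2102 reads, against 579, 252 and 559 in AL-old 2, 24 and 33. The model pools the reads of a group, so deeper libraries weigh more, and level and depth were not separated. When any one of the other 6 monkeys was left out, 0–7 were higher and 0–10 lower, against 0–0.0763% and 0.0551–1.59% of all sites. A fit of CR-old 4 alone has no spread within its group to measure, so no counts are given for it.

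Between AL-old and AL-middle the direction of the calls turned with the scale. On the reads as counted, 141 of 5193 clustered highly methylated sites were lower and 270 higher in AL-old. Of all 23394 sites tested, 1.36% were lower and 13.3% higher. With the constants as an offset 1180 of the sites were lower and 29 higher, against 14% and 2.68% of all sites. All 141 lower and 29 higher sites were then called on both scales. Leaving out AL-old 7, the deepest AL-old library, raised the sites called lower on the reads as counted from 141 to 1035. It left 203 higher, against 10.8% lower and 12.6% higher over all sites. Leaving out AL-middle 17, 42, 43 or 46 left 47, 78, 59 or 81 lower and 111, 168, 138 or 216 higher. Of all sites, 0.522–0.827% and 5.14–10% were then called. On the reads as counted, limma on log2 odds called 33 lower and 90 higher, with 0.274% and 6.31% of all sites called. In a further alternative, chosen once the data had been seen, the mean log odds of the isolated sites set the scale of each library. Then 327 sites were lower and 276 higher in AL-old than AL-middle, against 3.67% and 11.7% of all sites, and 98 were higher and 42 lower in CR-old than AL-old, against 0.981% and 2.34%. Because AL-middle differed from AL-old in the standard as well, these counts cannot be told apart from the reading of the standard.

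**Figure D3:**
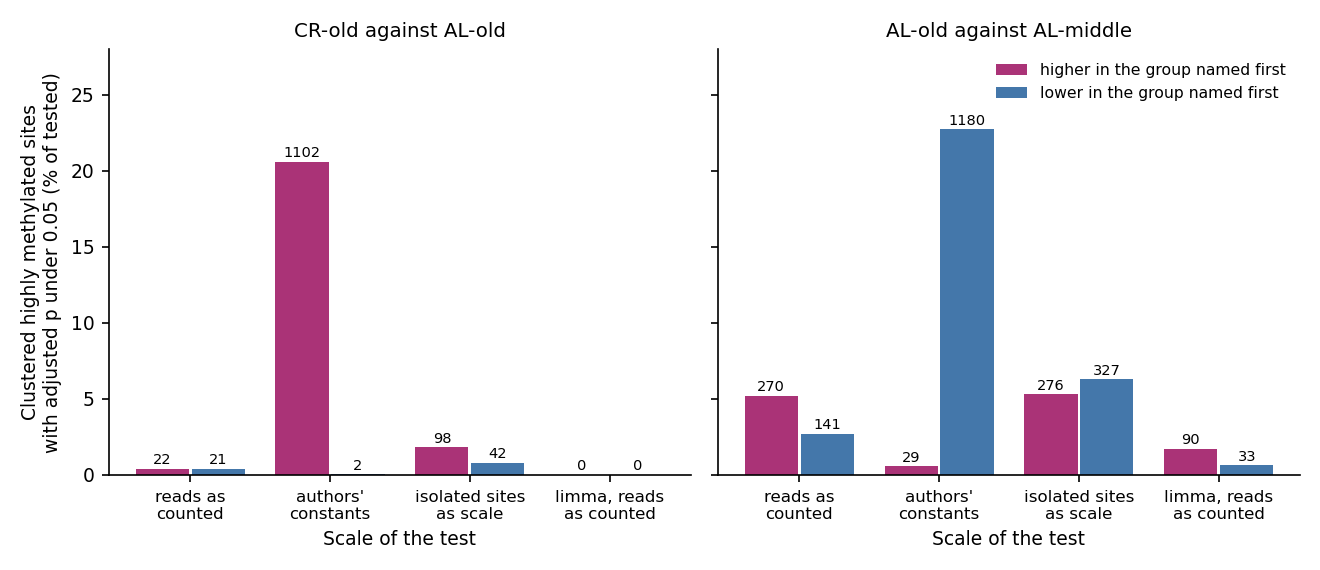
Percentage of the tested clustered highly methylated sites with an adjusted p under 0.05, higher or lower in the first-named group, with the number of sites over each bar; 5354 sites were tested for CR-old against AL-old and 5193 for AL-old against AL-middle. The constants raise the sites higher in CR-old from 22 to 1102 and the sites lower in AL-old than AL-middle from 141 to 1180.

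The site called higher in CR-old on both scales with the largest difference was SmaI_rheMac2_359986 at chr20:83600817 of the rheMac2 build, with 1 neighbour 94 bp away and 258 to 2750 reads per library. Its corrected levels were 97.1, 96.4, 94.9 and 96.1% in the AL-infant monkeys, in the order 49, 52, 54 and 57. In AL-middle they were 93.4, 81.9, 93.6, 86.4 and 85.0%, in the order 17, 40, 42, 43 and 46. The AL-old monkeys 2, 7, 24 and 33 had 52.7, 59.4, 61.2 and 57.4%, and CR-old 1, 4 and 28 had 91.0, 87.3 and 89.4%. All AL-old monkeys were low and no other monkey overlapped them. CR-old was 31.6 points above AL-old (quasi-binomial logistic model, adjusted p = 0.0359, and 0.00235 with the constants), and AL-old was 30.4 points below AL-middle (adjusted p = 0.0103, and 0.00257 with the constants). On the reads as counted the call between CR-old and AL-old was lost with limma on log2 odds (adjusted p = 0.265) and when any monkey other than AL-old 7 was left out (adjusted p = 0.0592–0.114). With the constants it was kept whichever monkey was left out (adjusted p = 0.00392–0.0137). The call between AL-old and AL-middle was kept with limma (adjusted p = 0.0295). It was the only site named under both comparisons.

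The next 3 sites named by the same rule had the same shape. SmaI_rheMac2_128910 (chr6:170256130) stood at 54.6, 53.0, 57.1 and 46.2% in AL-old 2, 7, 24 and 33 and at 87.6, 75.2 and 82.8% in CR-old 1, 4 and 28. SmaI_rheMac2_3747 (chr1:7732023) stood at 50.9, 57.3, 56.2 and 47.8% in AL-old and at 83.9, 80.5 and 81.8% in CR-old, in the same orders. SmaI_rheMac2_273291 (chr14:132915126) stood at 58.1, 58.2 and 55.3% in AL-old 2, 24 and 33, with 0 reads in AL-old 7, and at 87.6, 83.5 and 86.6% in CR-old. None of the AL-old values overlapped those of CR-old, and CR-old lay 28.7–29.2 points higher. The adjusted p of the logistic model was 0.0325 for SmaI_rheMac2_128910, 0.0460 for SmaI_rheMac2_3747 and 0.0348 for SmaI_rheMac2_273291, and it was 0.00524, 0.00281 and 0.00385 with the constants. With limma on log2 odds the adjusted p was 0.348, 0.366 and 0.326, and on the reads as counted each call was lost when any CR-old monkey was left out. The 1 site called lower in CR-old on both scales, SmaI_rheMac2_225178 (chr11:124543773), differed by 1.57 points, and its AL-old values of 94.6, 96.6, 89.5 and 95.4% overlapped the CR-old values of 91.6, 94.4 and 91.3%. Its call was lost with limma (adjusted p = 0.336) and, on the reads as counted, when any CR-old monkey was left out. With the constants in the logistic model it was lost when any monkey other than AL-old 24 was left out (adjusted p = 0.0581–0.272).

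The largest falls between AL-infant and AL-old reached means under 50%. SmaI_rheMac2_199354 (chr10:62527978) went from a mean of 90.7% in AL-infant to 43.7, 53.3, 35.9 and 33.5% in AL-old 2, 7, 24 and 33, and its mean fell by 49.1 points. Its values were 75.3, 65.4 and 70.5% in CR-old 1, 4 and 28, and 63.5–78.8% in AL-middle. CR-old and AL-middle overlapped, and both lay between AL-infant and AL-old. SmaI_rheMac2_275285 (chr15:3705276) fell by 46.4 points. SmaI_rheMac2_162864 (chr8:75950063) fell by 45.7 points and SmaI_rheMac2_190329 (chr10:6544875) fell by 44.7 points. All 4 had 1 neighbour. In CR-old they lay 28.3–29.5 points above AL-old, with adjusted p values of 0.0789–0.573 in the logistic model on the reads as counted, so none was called there. With the constants the others were called, and SmaI_rheMac2_190329 was not (adjusted p = 0.147), its AL-old values spreading from 29.9 to 67.2%. The largest rises were small, 5.36 points at SmaI_rheMac2_179031 (chr9:66314017) and 5.24 points at SmaI_rheMac2_331080 (chr19:6113578), and both sites had libraries under 100 reads.

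The largest differences of AL-old over AL-middle belonged to sites that were low in AL-middle alone or with certain CR-old libraries. SmaI_rheMac2_97560 (chr5:834082) had 25.3, 39.1, 47.5, 45.3 and 44.3% in AL-middle 17, 40, 42, 43 and 46. It had 96.2, 91.7 and 97.4% in AL-old 2, 24 and 33, with 87 reads in AL-old 7, and 88.5–97.6% in AL-infant. In CR-old it had 11.3% in monkey 1, 93.6% in monkey 4 and 23.8% in monkey 28. The low libraries were exactly the 7 in which the Luc306 standard read low. SmaI_rheMac2_259159 (chr14:8691104) split in the same way, with 67.5–75.7% in AL-middle, 57.4 and 76.2% in CR-old 1 and 28, and 92.9% or more in the other 9 libraries. Both were called higher in AL-old than AL-middle (logistic model, adjusted p = 0.00928 and 0.00149). The call at SmaI_rheMac2_97560 was kept with a minimum of 200 reads (adjusted p = 0.00844) and lost with 20 reads (0.0792). At this site the lower minimum brings in AL-old 7, whose level there is not given, so it is not known to share the high level. The AL-infant and AL-old monkeys were both high. Within CR-old, the low monkeys 1 and 28 were 24.9 and 25.1 years old, and monkey 4 was 23.7 years old. Their libraries held 121004338 and 126804562 reads, against 18042448 for monkey 4. Age, depth and the reading of the standard cannot be told apart within CR-old.

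The other 2 sites of this rule did not follow the standard. SmaI_rheMac2_242712 (chr13:27325223) had 44.9–60.4% in the 5 AL-middle monkeys and 89.6% or more in every other monkey with 100 reads, CR-old 1 included, at a depth of 85 to 266 reads. SmaI_rheMac2_139960 (chr7:57884526) had 78.5–85.7% in AL-middle and 91.8% or more elsewhere. Sites that split by the standard by more than 5 points were rare among the 3962 sites with 100 reads in all libraries. SmaI_rheMac2_97560 is not among these. After correction, 1 had all 7 low-standard libraries more than 5 points below all 9 others, and the reverse was seen at 0. Of all 16858 covered sites with 100 reads in all libraries, the shares were 0.00593% and 0.0178%. Before correction and with a gap of any size, 79 of the 3962 sites (1.99%) had the 7 below all 9 others, and 0 had them above. Over all 16858 sites these shares were 0.919% and 0.0178%. Among the sites lower in AL-old than AL-middle on both scales, the largest differences were at SmaI_rheMac2_60150 (chr3:39940901, -35.4 points), SmaI_rheMac2_299247 (chr16:42435606, -31.2 points), SmaI_rheMac2_359986 described above, and SmaI_rheMac2_59066 (chr3:32904513, -29.9 points). SmaI_rheMac2_60150 had 100 reads in only 3 AL-old and 2 CR-old monkeys, and 17 reads in its shallowest library. It was the only covered site in a run of 17 listed sites in which a gap of 38 bp occurred 8 times. On the reads as counted the call at SmaI_rheMac2_60150 was lost with limma (adjusted p = 0.0648) and without any one AL-middle monkey (0.0519–0.112), and that at SmaI_rheMac2_299247 without AL-middle 17, 42, 43 or 46 or AL-old 2 (0.0555–0.0846). At SmaI_rheMac2_59066 AL-old 2, 7, 24 and 33 had 67.2, 67.8, 64.6 and 57.3%, below the 93.4–95.9% of AL-middle and the 87.6–91.5% of CR-old.

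**Figure D4:**
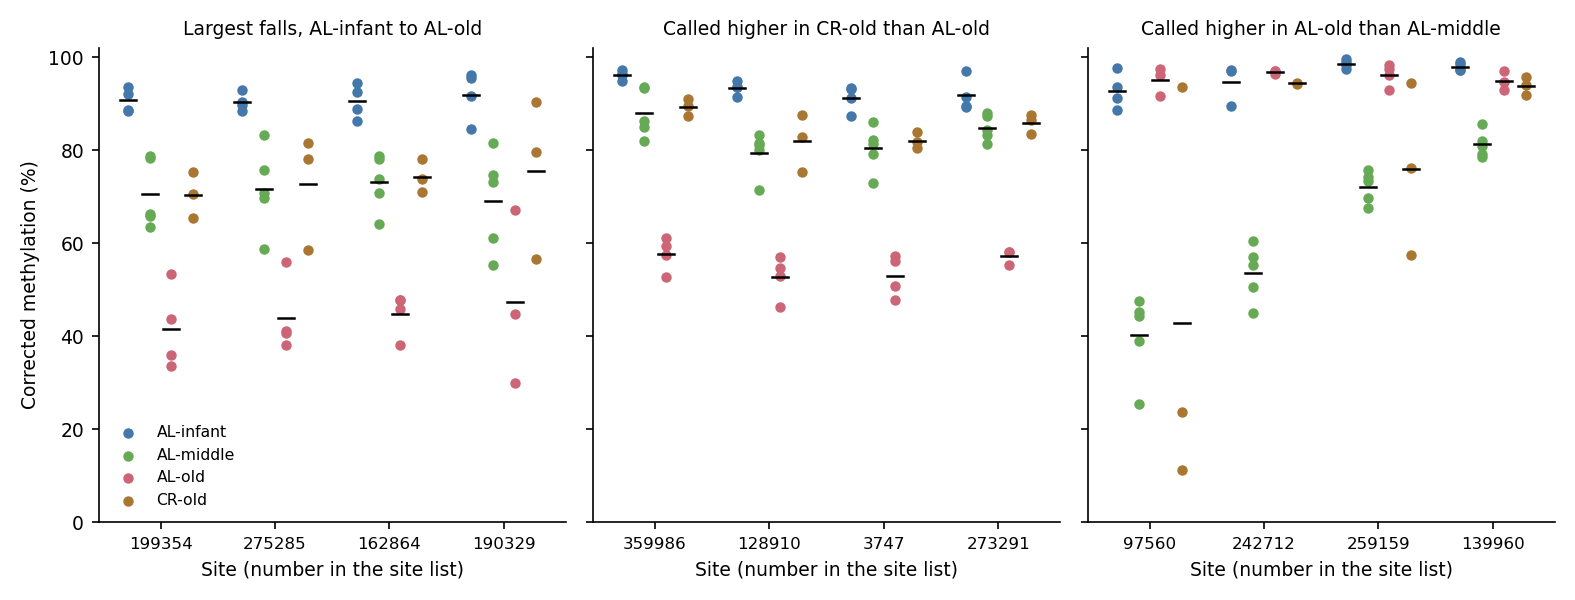
Corrected methylation (%) of single sites in each monkey with at least 100 reads (points) with the group mean (lines), for the 4 largest falls from AL-infant to AL-old, the 4 largest differences called higher in CR-old than AL-old and the 4 called higher in AL-old than AL-middle. In the middle panel AL-old lies at 46.2–61.2% and CR-old at 75.2–91.0%, and at SmaI_rheMac2_97560 in the right panel CR-old splits into 11.3, 23.8 and 93.6%.

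Some clustered sites did not vary. SmaI_rheMac2_288752 (chr15:105424222), SmaI_rheMac2_188512 (chr10:757775) and SmaI_rheMac2_111401 (chr5:174914650) had the smallest range over the 16 monkeys, and none of their values was under 99.26% in any group. The longest run made up of chosen sites alone held 6 sites over chr20:1773194-1774471. There the AL-old minus AL-infant changes ranged from -7.08 points at SmaI_rheMac2_347457, where AL-old 33 had 77.6% and the other AL-old monkeys 92.1–98.1%, to -1.26 points at SmaI_rheMac2_347452. The most chosen sites in any run, 10 of 11 listed, lay at chr7:1173455-1175920, and their mean was 98.7% in AL-infant, 98.4% in AL-old and 98.5% in CR-old. This run was picked after its values were seen.

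Some of the densest clusters repeated the recognition site at a fixed spacing. Of 31 runs with 10 or more listed sites that held a chosen site, 14 had the same gap at least 5 times, and in 6 no gap occurred more than once. One run at chr14:6341359-6343303 had 38 listed sites, with the same gap of 40 bp occurring 23 times. Of its sites, 5 were in the selection, and they averaged 96.9% in AL-infant, 90.3% in AL-old and 93.7% in CR-old. The sites with the most neighbours, 18 each, were SmaI_rheMac2_258146 (chr14:6342311) and SmaI_rheMac2_258147 (chr14:6342391) of that run. SmaI_rheMac2_207548 (chr10:92456159) had 17, in a run where a gap of 28 bp occurred 15 times. The largest run, 44 listed sites at chr8:41419054-41421125, repeated a gap of 32 bp and had only 1 site with enough reads. Reads from repeated units can map to more than one place, so levels in the runs with repeated gaps are less certain, and few of their sites were covered.

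The smallest median fall of any chromosome was that of chromosome 19. It held 592 of the sites (10.5%), more than any other chromosome, and the median of its single-site changes was -4.02 points. The median level was 96.0% in AL-infant, 91.5% in AL-old and 94.8% in CR-old. Over 20 points were lost at 4.22% of its sites, compared with 16.2% of all the sites. Chromosome 9 had the largest median fall, with a change of -13.2 points and a median level of 82.1% in AL-old, and 22.7% of its 269 sites lost over 20 points. Within a library, where the constant cancels, the log2 odds of chromosome 19 sites exceeded those of the others by 0.14 ± 0.048 in AL-infant, 0.30 ± 0.076 in AL-middle, 0.67 ± 0.25 in AL-old and 0.40 ± 0.10 in CR-old. The AL-old values (0.42–0.95) did not overlap those of AL-infant (0.082–0.19). Both chromosomes were singled out after their values were seen. Sites within 2 Mb of the first or last listed position of a chromosome were 22.6% of the selection and 16.4% of all covered sites, and their median change was -7.14 points, against -8.44 points elsewhere.

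**Figure D5:**
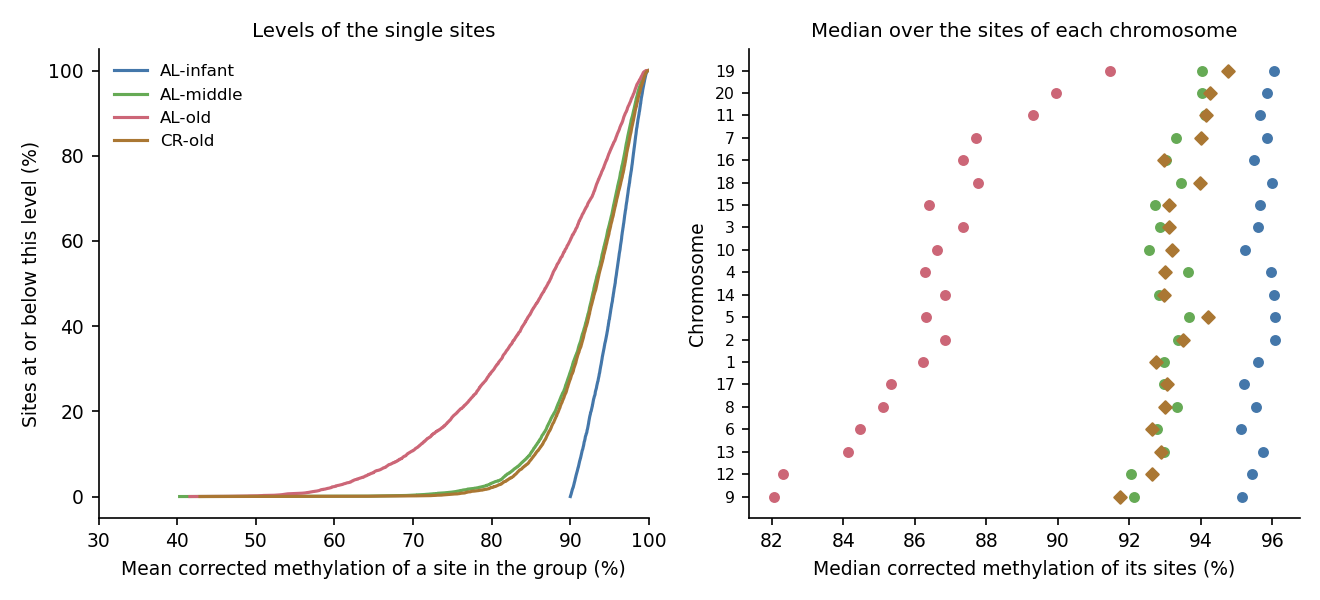
Left, the cumulative percentage of the sites at or below a given group mean of corrected methylation (%), a curve per group. Right, the median corrected methylation (%) of the sites on each chromosome (axis from 82%), with chromosomes ordered by the median change from AL-infant to AL-old and diamonds for CR-old; chromosome 19 is highest in AL-old at 91.5% and chromosome 9 lowest at 82.1%.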

How the data were processed

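DREAM libraries of whole blood DNA from 16 monkeys were analysed. For each SmaI site of rheMac2 the authors deposited read counts (methylated, unmethylated, total), and percent methylation before and after correction. The deposited uncorrected percent adds 0.5 reads to each count, and the corrected percent multiplies its odds by 1 constant per library; both relations were checked on the values, to within 0.0052 points. Per the labels' processing notes, the submitters named Bowtie2, SAMtools and mm10, while the study's methods and the site names give rheMac2; tool versions were not given in the sources used here. Positions are as deposited. Gene annotation and genome sequence of this build were not used here.

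Sites were chosen as described above, with at least 100 reads per value. The sites, classes and named sites were chosen with earlier results of these data known. Sites were named by size rules: the largest changes and called differences, the smallest range, the most neighbours, the threshold and the longest run. Groups follow the labels, and p-values measure the spread between monkeys. A quasi-binomial logistic model with an F test compared sites with 100 reads in at least 3 monkeys of each group. Dispersion was moderated with limma, and p was adjusted by Benjamini-Hochberg, two-sided, at 0.05. Both models were tested on simulated reads. They recovered the shifted sites about equally well, but among the logistic model's calls the share of unshifted sites was well above the nominal rate, and among limma's calls it was not. Alternatives were the constants as an offset, limma on log2 odds of the reads as counted, 20 or 200 reads, other windows and levels, and each monkey left out. Tests were run in R 4.3.3 (limma 3.58.1), everything else in Python 3.11.15 (pandas 2.3.3, numpy 2.4.6, scipy 1.17.1), and plots in matplotlib 3.10.9.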

Additional observations from a re-analysis of the deposited data

Results flagged for a closer look

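In 122 groups of 4 or 5 monkeys, the mean levels, within-library differences and single-site values given above were checked for a monkey far from the others by Dixon's criterion at 95%. Chance alone gives about 1 in 20, and 6 were found, so their number is near that expected by chance. AL-old 7 stood apart at SmaI_rheMac2_275285, with 55.9% against 38.2–41.2% in the other AL-old monkeys. AL-middle 40 stood apart at SmaI_rheMac2_128910, with 71.5%, and at SmaI_rheMac2_258146, with 92.5%, in both cases as the lowest. At SmaI_rheMac2_347456, AL-infant 52 was lowest with 98.65% and AL-old 24 was lowest with 96.6%. AL-infant 52 was also lowest at SmaI_rheMac2_288752, with 99.7%, a gap of under 1 point. The causes were not tested.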

How the results depend on the processing

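No paired analysis was possible because each monkey belongs to 1 group and the groups share no monkey numbers. The differences of mean level kept their direction under all alternatives. On the uncorrected share of methylated reads they shrank to -4.18 points for AL-old minus AL-infant, -1.44 for AL-old minus AL-middle and 1.33 for CR-old minus AL-old, and to -4.40 with 1 neighbour and -3.69 with 4 or more for AL-old minus AL-infant. With members chosen again on that scale (8267 sites) these were -5.72, -1.86, 1.75, -6.05 and -4.96. A mean over 95% in AL-infant gave -5.82 for 4 or more neighbours. With each monkey left out in turn they ranged from -11.8 to -9.11, -8.50 to -5.85, 6.24 to 8.89, -12.3 to -9.43 and -10.7 to -8.16. Other read minimums, windows of 200 or 1000 bp, the median over sites and CR-old 4 alone moved them by less than 1 SD between monkeys.

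The clustered minus isolated log2 odds became 0.10 in AL-infant when isolation meant none within 1000 bp (104 sites), and -0.18 in AL-old and -0.15 in CR-old with 200 reads (90 isolated sites). Left-out monkeys gave 0.0073 to 0.055 in AL-infant, -0.069 to -0.0039 in AL-middle, -0.060 to -0.0089 in AL-old and -0.093 to -0.062 in CR-old.

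The counts of called sites depended on the scale. Of the sites higher in AL-old than AL-middle, 270 became 29 with the constants, 90 with limma and 37 with a difference of 5 points required (1.78% of all sites), and 111–288 with a monkey left out. The 141 lower ones became 1180, 33 with limma and 327 with isolated sites as scale, and 47–1035 with a monkey left out. Of the sites higher in CR-old than AL-old, 22 became 1102 with the constants, 98 with isolated sites as scale, 14 with 200 reads (0.112% of all sites), and 0 with limma. The range was 0–260 with a monkey left out. The 21 lower ones became 2, 42, 10 (1.64% of all sites) and 0 in that order. They became 1 with 5 points required (0.504% of all sites) and 0–10 with a monkey left out. With the constants and a monkey left out, both added after seeing the data like the scale of isolated sites, 438–2151 were higher and 0–5 lower in CR-old, and 457–2354 lower and 10–43 higher in AL-old than AL-middle. Of all sites, 5.88–26.5%, 0.152–1.09%, 6.9–28.1% and 0.994–4.81% were then called, in that order. The constants act by construction, being lowest in AL-old; the cause of the other shifts was not tested. For the sites named from AL-old against AL-middle, 15 of 158 repeats lost the call and none reversed. No such share is given for the sites named from CR-old against AL-old. Their repeats include fits of a CR-old monkey alone, which have no spread within that group to measure. Each of these sites lost the call with limma and, on the reads as counted, when any CR-old monkey was left out. Each kept it with the constants and with isolated sites as scale, all monkeys included.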
